A study of Mus musculus with 15 samples.

Results

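The 10 genes described here encode subunits of the nicotinic acetylcholine receptor in mouse embryonic fibroblasts (MEFs, a primary and mixed culture of embryonic connective tissue cells) given a neurogenic transcription factor. They were chosen by name as the 5 muscle-type subunit genes Chrna1, Chrnb1, Chrnd, Chrne and Chrng and the 5 neuronal-type genes Chrna3, Chrna4, Chrna7, Chrnb2 and Chrnb4, out of 43432 genes in the deposited table. Of these 10, 8 passed the filter on low counts and were tested among 16872 genes. Chrnd and Chrne did not pass it. PolyA RNA was sequenced from 5 groups of 3 libraries, lettered a, b and c. The 4 treated groups carried lentivirus for Ngn1 or Ngn3 (the genes Neurog1 and Neurog3, both basic helix-loop-helix factors), switched on with doxycycline at day 0. They are called Ngn1 day 1, Ngn3 day 1, Ngn1 day 13 and Ngn3 day 13, and the protocol moves cells from serum medium to a neuronal medium (N2 and B27 supplements) on day 2. The label of the control MEFs names no virus, medium, doxycycline or culture time, and the sources used here do not give them. At day 13 the factor, the medium and the time in culture therefore cannot be told apart. At either day, the factor cannot be told apart from the virus, the doxycycline or other culture differences from the controls. Nothing states that the letters are separate cultures, so the p-values measure the spread between these libraries, which may be technical.

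Nicotinic receptors are ion channels made of 5 subunits around a pore that opens when acetylcholine binds. In skeletal muscle, the α1, β1, δ and γ subunits form the fetal receptor, and ε takes the place of γ in the adult neuromuscular junction. Neurons use other combinations: α4 with β2 is the common form in the brain, α3 with β4 is the common form in autonomic ganglia, and α7 forms a channel by itself. The muscle genes are textbook targets of the myogenic helix-loop-helix factors such as MyoD, which bind the E-box, a 6-base site read as CANNTG. Neurogenins belong to the same wider protein class.

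Libraries held 14869015 to 17859844 counts. Neurog1 had 16252 to 65277 counts in the Ngn1 day 1 libraries and 22766 to 80443 in the Ngn1 day 13 libraries, against 0 in every control. Neurog3 had 20393 to 52069 and 22349 to 98008 counts in the matching Ngn3 libraries, against 0 to 1 in the controls. Fibroblast markers were present in every group. Their mean summed level was 9108 CPM (read counts scaled to library size, the standard CPM unit) in the controls. With Ngn1 and Ngn3 it was 6566 and 6496 CPM at day 1 and 25464 and 20189 CPM at day 13. The day 13 libraries ran from 9931 to 34825 CPM and from 10016 to 33767 CPM, overlapping the 7799 to 10835 CPM of the controls. The 7 fibroblast markers did not move as a set. At day 1, 1 rose and 2 fell with each factor. At day 13, 3 rose and 2 fell with Ngn1, where 32.6% of all tested genes rose and 26.8% fell. With Ngn3, 4 rose and 2 fell, where 31.2% of all tested genes rose and 26.4% fell. For 7 pan-neuronal markers the sum was 64.2 to 68.5 CPM in the controls and 476 to 1231 CPM over the day 13 libraries. At day 1 it was 73.8, 199.8 and 82.4 CPM with Ngn1 and 61.8, 193.2 and 69.4 CPM with Ngn3, so library b set both day 1 means. Of these 7, 0 rose and 1 fell with each factor at day 1. Over all tested genes, 6.78% rose and 5.42% fell with Ngn1, and 7.19% and 5.59% with Ngn3. In such mixed libraries a change in the number of cells of a type and a change in RNA per cell cannot be told apart.

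The start regions of Chrna1 and Chrng, which moved in opposite directions with Ngn1 at day 1, and of Chrna3 and Chrnb2, which were high at day 13, are shown for their E-boxes. Each line holds the 250 bases before the start that RefSeq gives (GRCm38.p6), read 5′ to 3′ on the gene's strand, with every CANNTG in capitals. The site reads as CANNTG on both strands. The windows are chr2:73580339-73580588 on the minus strand for Chrna1, chr1:87205561-87205810 on the plus strand for Chrng, chr9:55026563-55026812 on the minus strand for Chrna3 and chr3:89764633-89764882 on the minus strand for Chrnb2. In GENCODE the Chrng gene begins farther upstream, so its window lies inside the annotated gene.
Chrna1: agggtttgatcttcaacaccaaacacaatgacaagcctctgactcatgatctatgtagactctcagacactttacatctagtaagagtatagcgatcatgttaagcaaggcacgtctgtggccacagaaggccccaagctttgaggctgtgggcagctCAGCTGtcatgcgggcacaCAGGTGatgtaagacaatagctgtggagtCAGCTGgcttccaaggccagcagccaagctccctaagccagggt
Chrng: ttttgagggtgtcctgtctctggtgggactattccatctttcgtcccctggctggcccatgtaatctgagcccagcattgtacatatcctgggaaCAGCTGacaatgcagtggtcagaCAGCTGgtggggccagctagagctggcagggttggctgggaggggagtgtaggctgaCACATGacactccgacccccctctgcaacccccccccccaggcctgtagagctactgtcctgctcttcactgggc
Chrna3: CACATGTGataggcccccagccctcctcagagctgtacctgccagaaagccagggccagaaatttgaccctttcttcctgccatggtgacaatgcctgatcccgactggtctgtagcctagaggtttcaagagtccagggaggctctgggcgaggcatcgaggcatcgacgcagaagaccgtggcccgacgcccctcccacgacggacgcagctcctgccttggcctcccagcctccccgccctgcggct
Chrnb2: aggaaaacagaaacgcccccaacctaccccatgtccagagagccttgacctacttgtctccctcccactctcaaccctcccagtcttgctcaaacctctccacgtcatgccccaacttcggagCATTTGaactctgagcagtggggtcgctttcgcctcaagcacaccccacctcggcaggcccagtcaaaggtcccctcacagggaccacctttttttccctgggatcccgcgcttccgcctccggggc

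The Chrna1 window held CAGCTG beginning 92 and 44 bases before the start and CAGGTG at 73. The Chrng window held CAGCTG at 155 and 132 and CACATG at 75. Both therefore carry 2 copies of CAGCTG, which 1.26% of 32851 windows of the same length did, while 13.0% held at least 1 copy and 66.2% held any CANNTG. The Chrna3 window held CACATG and CATGTG, which overlap, at its far end, and the Chrnb2 window held CATTTG at 127. Of the other members with a window, Chrnb4 held CAGGTG at 71 and CAGCTG at 14, Chrne held CAGCTG at 138, Chrnb1 held 3 E-boxes and Chrna7 held 2, none of them CAGCTG, and Chrna4 held none. The Chrna4 and Chrnb4 windows lie inside or mostly inside their genes in GENCODE, with 128 and 235 of 250 bases in annotated exon. These are matches of letters in a window, and no binding was measured.

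Chrna1, which encodes the α1 subunit that carries the acetylcholine site in muscle, was the member that changed most at day 1. Its level was 8.07, 7.81 and 5.25 CPM in control libraries a, b and c. It was 474, 310 and 214 CPM with Ngn1 and 530, 240 and 224 CPM with Ngn3 at day 1. At day 13 it was 3.14, 1.24 and 0.404 CPM with Ngn1 and 4.39, 1.29 and 0.337 CPM with Ngn3. All 6 day 1 libraries lay above the controls and all 6 day 13 libraries below them, with library a the highest of its group in every treated group. The gene (ENSMUSG00000027107, chromosome 2, 73563215 to 73580338, mm10) rose by 5.56 ± 0.70 on the log2 scale with either factor (edgeR's quasi-likelihood test, adjusted p = 7.55e-05 for Ngn1 and 7.93e-05 for Ngn3). In CPM per kb of exon, a scale that allows genes to be compared, it ranked 10850 of 16765 tested genes in the controls, and 733 and 686 with Ngn1 and Ngn3 at day 1.

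From day 1 to day 13, Chrna1 fell by 7.72 ± 0.79 (log2, adjusted p = 1.88e-06) with Ngn1 and fell by 7.36 ± 0.78 (adjusted p = 2.72e-06) with Ngn3. It ended below the controls, at -2.16 ± 0.69 (adjusted p = 0.0134) and -1.81 ± 0.67 (adjusted p = 0.0301). The fall below the controls was the less stable of these results. Without Ngn1 day 13 library c the adjusted p was 0.0552, and for Ngn3 it was 0.0529 in DESeq2 and 0.0615 to 0.101 in edgeR without control a, control b, or Ngn3 day 13 library b or c. Without library a of either day 13 group, the difference was -3.11 in both, and the difference from day 1 was -8.67 in both. Library a of these groups also had the most macrophage marker RNA, a sum of 84.3 CPM with Ngn1 and 196 CPM with Ngn3 against 10.9 to 40.0 CPM in libraries b and c and 132 to 213 CPM in the controls. At day 1 library a did not have the most: the sums in a, b and c were 45.3, 64.5 and 45.9 CPM with Ngn1. With Ngn3 they were 26.8, 22.8 and 27.8 CPM. The autonomic neuron markers given below were also highest in library a of both day 13 groups, at 62.0 and 52.8 CPM. The part of macrophages in the Chrna1 level was not tested.

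**Figure D1:**
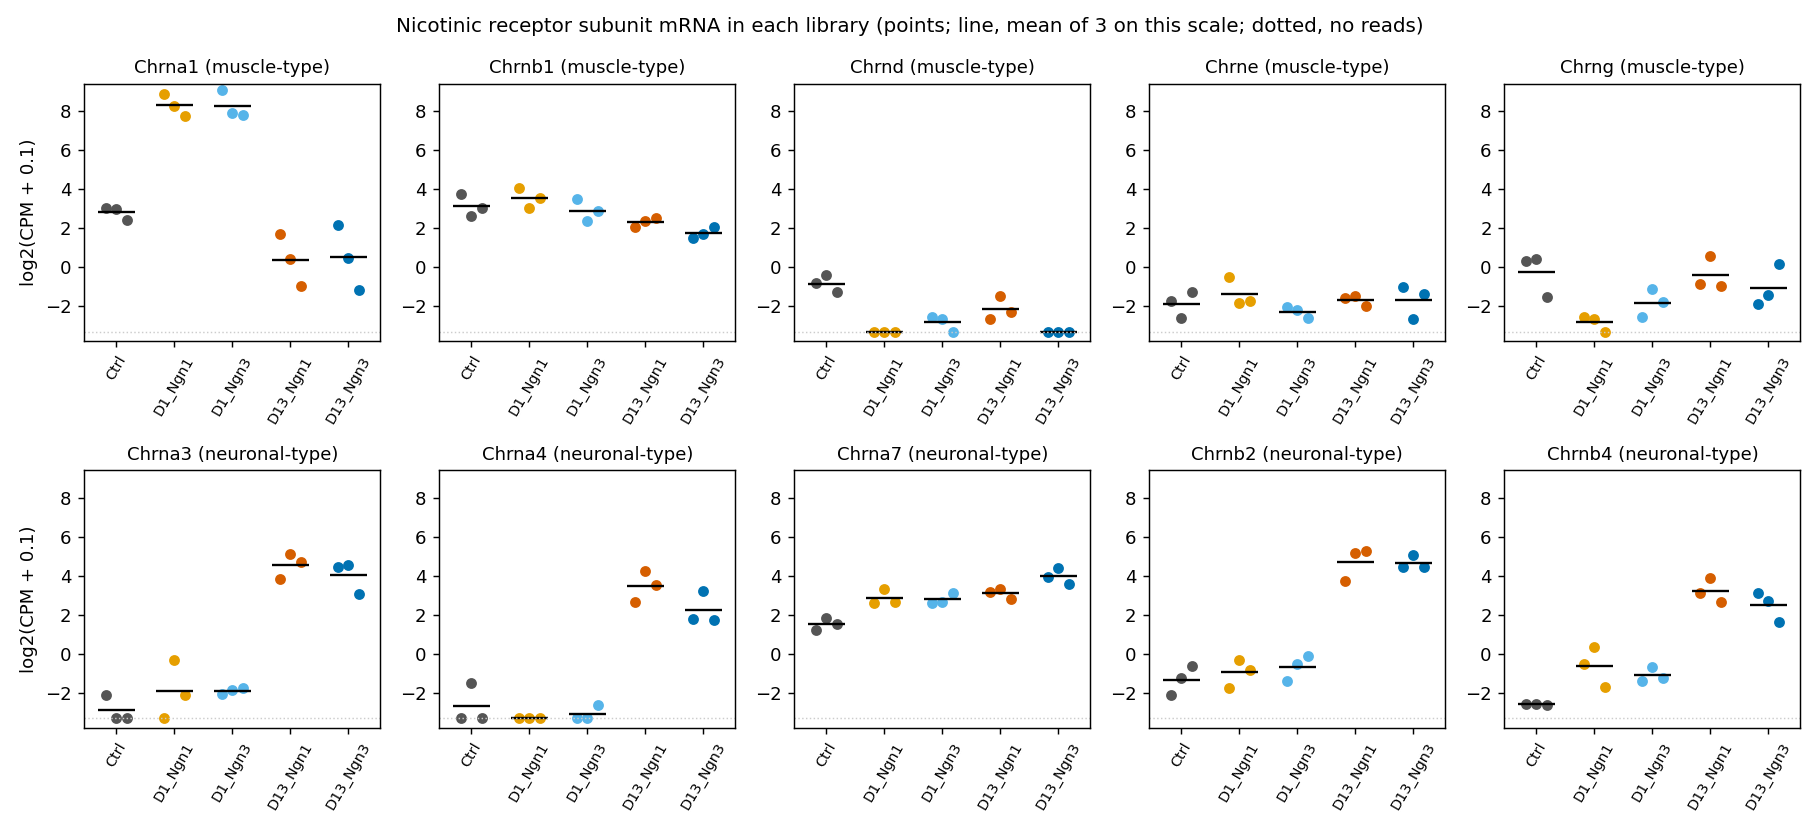
Level of each of the 10 subunit genes in each of the 15 libraries, as log2(CPM + 0.1), with points for libraries in the order a, b, c and a line at the mean of 3 on this scale. Chrna1 stands at 214 to 530 CPM in the 6 day 1 libraries and at 8.07 CPM or less elsewhere, while Chrna3, Chrna4, Chrnb2 and Chrnb4 are high in the 6 day 13 libraries.

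None of the subunits that join α1 in the muscle receptor was called higher at day 1. Chrnb1, the β1 subunit (ENSMUSG00000041189, chromosome 11, 69784036 to 69795943), had 13.4, 6.02 and 8.08 CPM in the controls, 16.3, 7.94 and 11.3 CPM with Ngn1 at day 1, and 10.9, 4.98 and 7.08 CPM with Ngn3 at day 1. These groups overlapped. The log2 differences from the controls were 0.37 ± 0.36 (adjusted p = 0.617) and -0.26 ± 0.36 (adjusted p = 0.72), neither called. At day 13 Chrnb1 had 4.03, 4.94 and 5.51 CPM with Ngn1 and 2.67, 3.11 and 3.99 CPM with Ngn3, below every control. It fell by 0.92 ± 0.37 (adjusted p = 0.0397) and by 1.49 ± 0.37 (adjusted p = 0.00309). The Ngn1 call was lost without control a (-0.57, adjusted p = 0.219), without any of the 3 Ngn1 day 13 libraries (adjusted p = 0.0555 to 0.108), and with sizes set by library totals (-0.60, adjusted p = 0.161). Against day 1, Chrnb1 fell by 1.29 ± 0.37 with Ngn1 (adjusted p = 0.00701) and by 1.23 ± 0.37 with Ngn3 (adjusted p = 0.0111), the second not called without Ngn3 day 1 library a (-0.89, adjusted p = 0.0712).

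Chrng, the fetal γ subunit (ENSMUSG00000026253, chromosome 1, 87204657 to 87212694), and Chrnd, the δ subunit (ENSMUSG00000026251, chromosome 1, 87190607 to 87200070), lie side by side and were scarce throughout. Chrng had 17, 19 and 4 counts in the controls, 1, 1 and 0 with Ngn1 and 1, 6 and 3 with Ngn3 at day 1, and 8, 27, 8 and 3, 5, 18 at day 13. All 3 Ngn1 day 1 libraries were below every control, whereas the other groups overlapped the controls. The drop with Ngn1 at day 1 was a ratio of 19.97-fold with a 95% exact counting interval of 5.18 to 171, which covers counting error only (adjusted p = 0.0189). That call was lost without control a or b or any of the 3 Ngn1 day 1 libraries (adjusted p = 0.0514 to 0.072). With Ngn3 at day 1 the log2 difference was -2.01 ± 0.85 (adjusted p = 0.145), and at day 13 it was -0.19 ± 0.74 and -0.83 ± 0.77 (adjusted p = 0.838 and 0.371). From day 1 to day 13 with Ngn1, Chrng rose by a ratio of 17.8-fold (interval 4.64 to 152, adjusted p = 0.00564), a fitted log2 difference of 3.93, or 3.11 without Ngn1 day 13 library b.

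Chrnd had 7, 10 and 5 counts in the controls and 0 in every Ngn1 day 1 and Ngn3 day 13 library. Its other counts were 1, 1 and 0 with Ngn3 at day 1 and 1, 5 and 2 with Ngn1 at day 13. Against the controls it was at least 7.32-fold lower with Ngn1 at day 1 and at least 8.44-fold lower with Ngn3 at day 13, taking 3 counts over a group as the floor. It was not in the main test. With no filter it passed in those comparisons (adjusted p = 0.0111 and 0.00197), in which 3.98% and 15.5% of 28947 genes were called lower. Chrne, the adult ε subunit (ENSMUSG00000014609, chromosome 11, 70614883 to 70619216), had 1 to 9 counts in every library. Every treated group overlapped the controls, and with Ngn3 at day 1 its 2, 2 and 1 counts lay below the 9, 3 and 3 with Ngn1. It was not called against the controls with no filter (adjusted p = 0.806 to 1).

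Markers of skeletal muscle cells, the cells that normally carry these subunits, were lower at day 1 when Chrna1 was high. The summed level of 20 markers was 139 to 180 CPM in the controls, 41.0 to 54.6 CPM with Ngn1 and 28.9 to 41.2 CPM with Ngn3 at day 1. Of 15 markers tested, 0 rose and 8 fell with Ngn1, and 0 rose and 10 fell with Ngn3 (5.42% and 5.59% of all genes fell), with median log2 differences of -2.33 and -2.68 (0.02 over all genes in each). Myog, a myogenic factor, fell by 3.13 and 4.04, and Actc1, an actin of embryonic muscle, fell by 3.49 and 3.89. Myod1 had 43 counts over the controls and 3 and 5 over the day 1 groups. At day 13 the sums were 61.8 to 207 CPM with Ngn1 and 20.2 to 123 CPM with Ngn3. There, 3 of 15 rose and 1 fell with Ngn1, and 2 rose and 3 fell with Ngn3, shares below the 32.6% higher and 26.8% lower, and 31.2% and 26.4%, over all genes. Myod1 and Myh8, a developmental myosin, were higher with both. Myh8 with Ngn3 ran from 0.842 to 20.5 CPM, overlapping the 0.543 to 1.15 CPM of the controls. Des went the other way, at 8.69 to 27.4 CPM with Ngn1 and 5.73 to 17.2 CPM with Ngn3. It had 46.9 to 66.0 CPM in the controls. Pax7 was at 0 in the controls and in both day 1 groups, and Ckm was at 0 in the controls. The part of these markers in the subunit levels was not tested.

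**Figure D2:**
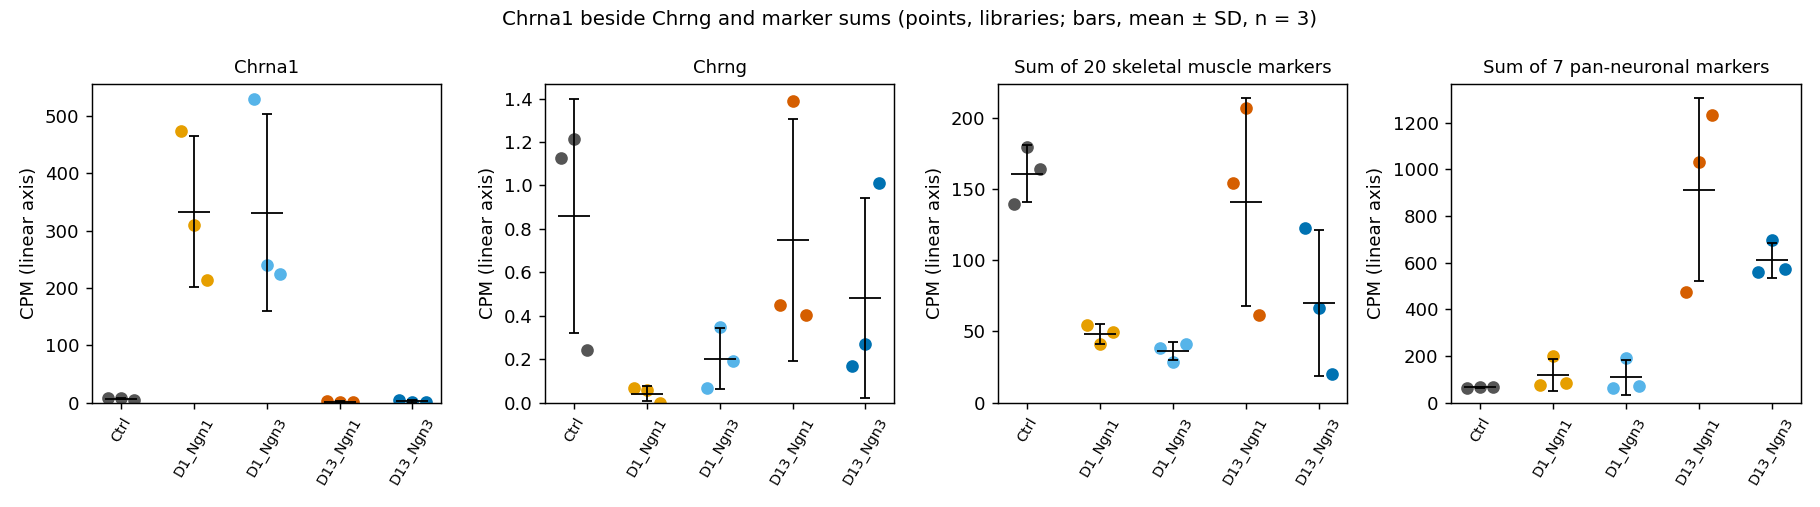
Level in CPM (linear axes) of Chrna1, of Chrng, and of the sums of 20 skeletal muscle and 7 pan-neuronal markers, with points for libraries and bars for the mean ± SD of 3. At day 1 Chrna1 reaches 214 to 530 CPM while the muscle marker sum lies between 28.9 and 54.6 CPM, below the 139 to 180 CPM of the controls.

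Against the controls, 4 of the 8 tested members were called with Ngn1 at day 1 and 2 with Ngn3. Chrna1, Chrna7 and Chrnb4 rose and Chrng fell with Ngn1, where 6.78% of all tested genes were called higher and 5.42% lower. Chrna1 and Chrna7 rose with Ngn3, where 7.19% were called higher and 5.59% lower. At day 13, 7 members were called with each factor: the 5 neuronal-type genes rose and Chrna1 and Chrnb1 fell. The background there was 32.6% higher and 26.8% lower with Ngn1, and 31.2% higher and 26.4% lower with Ngn3. All 4 comparisons share the same 3 control libraries. The 7 pan-neuronal markers also all rose at day 13 with each factor, and the part of the number of neuron-like cells in the subunit levels was not tested.

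Chrna7, the α7 subunit (ENSMUSG00000030525, chromosome 7, 63098692 to 63212569), was the only neuronal-type member with more than 9 counts in every control library. It had 2.18, 3.39 and 2.71 CPM in the controls, 5.91, 10.0 and 6.06 CPM with Ngn1 and 6.03, 6.20 and 8.60 CPM with Ngn3 at day 1. All treated libraries lay above the controls. It rose at day 1 by 1.40 ± 0.31 (log2, adjusted p = 0.00647) with Ngn1 and by 1.33 ± 0.31 (adjusted p = 0.00938) with Ngn3. At day 13 it had 8.69, 9.83 and 6.97 CPM with Ngn1 and 15.1, 20.8 and 11.9 CPM with Ngn3, groups that did not overlap. It stood above the controls by 1.62 ± 0.31 (adjusted p = 0.000399) and 2.52 ± 0.32 (adjusted p = 9.69e-06). From day 1 to day 13 it rose with Ngn3 (1.20 ± 0.30, adjusted p = 0.00318), while the difference with Ngn1 was 0.21 ± 0.30 (adjusted p = 0.555).

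Chrna3 and Chrnb4, the α3 and β4 subunits of the ganglionic receptor, are neighbours on chromosome 9 (55010111 to 55026562 and 55028154 to 55048779). Chrna3 (ENSMUSG00000032303) had 2, 0 and 0 counts in the controls, 0, 12 and 2 with Ngn1 and 2, 3 and 3 with Ngn3 at day 1. At day 13 it had 248, 673 and 517 counts with Ngn1 and 393, 429 and 146 with Ngn3, or 13.9, 34.7 and 26.1 CPM and 21.8, 23.0 and 8.20 CPM. Every day 13 library was far above every other library. Against the controls the ratio was 596-fold (counting interval 165 to 4929, adjusted p = 1.65e-06) and 421-fold (116 to 3479, adjusted p = 2.75e-06). Against day 1 the gene rose by 6.38 ± 0.74 (adjusted p = 5.4e-06) and 6.65 ± 0.78 (adjusted p = 7.14e-06) on the log2 scale. The first was 8.40 without Ngn1 day 1 library b, which holds 12 of the 14 counts of its group. Against the controls the fitted values were 11.72 and 11.23 without control a, the only control with counts, and 8.97 and 8.47 with it. At day 1 its difference from the controls was not called (adjusted p = 0.236 and 0.466).

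Chrnb4 (ENSMUSG00000035200) had 1 count in each control. At day 1 it had 9, 20 and 3 counts with Ngn1 and 4, 9 and 5 with Ngn3, all above the controls. The ratio with Ngn1 was 10.7-fold (interval 3.34 to 54.5, adjusted p = 0.0152), a call lost without any of the controls or without Ngn1 day 1 library b (adjusted p = 0.0506 to 0.0994). With Ngn3 it was 5.98-fold (1.75 to 31.7, adjusted p = 0.0833), not called. At day 13 Chrnb4 had 8.46, 14.5 and 6.22 CPM with Ngn1 and 8.61, 6.49 and 2.92 CPM with Ngn3, above every other library. The ratio to the controls was 153-fold (interval 52.2 to 746, adjusted p = 1.68e-06) and 95.03-fold (32.2 to 463, adjusted p = 4.18e-06). It rose further from day 1, by 3.86 ± 0.55 (adjusted p = 3.65e-05) and 3.97 ± 0.58 (adjusted p = 4.82e-05), the first being 4.58 without Ngn1 day 1 library b.

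Chrna4 and Chrnb2 encode the α4 and β2 subunits of the common brain receptor. Chrna4 (ENSMUSG00000027577, chromosome 2, 181018380 to 181043546) had 0, 4 and 0 counts in the controls, 0 in every Ngn1 day 1 library and 0, 0 and 1 with Ngn3 at day 1. At day 13 it had 6.05, 18.8 and 11.4 CPM with Ngn1 and 3.28, 9.07 and 3.20 CPM with Ngn3. It rose against the controls by 7.04 ± 0.90 (adjusted p = 2.18e-05) and 5.82 ± 0.89 (adjusted p = 0.000104). The controls' 4 counts are all in library b, so these sizes are loosely set: without control b they were 10.67 and 9.46, and over all libraries left out in turn they ran from 6.43 and 5.12 upwards (without control c for Ngn1 and without Ngn3 day 13 library b for Ngn3). Against day 1 it was at least 193-fold higher with Ngn1 (adjusted p = 1.14e-05), with 3 counts over the group as the floor. With Ngn3 the ratio to day 1 was 249-fold (interval 44.3 to 9852, adjusted p = 6.16e-05), resting on the 1 count in library c.

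Chrnb2 (ENSMUSG00000027950, chromosome 3, 89746195 to 89764632) had 0.132, 0.320 and 0.543 CPM in the controls and 0.197 to 0.822 CPM at day 1. At day 13 it had 13.2, 35.6 and 38.6 CPM with Ngn1 and 21.7, 33.0 and 21.3 CPM with Ngn3. The day 1 groups overlapped the controls and the day 13 groups lay above them. Chrnb2 rose against the controls by 6.41 ± 0.57 (adjusted p = 4.4e-07) and 6.20 ± 0.56 (adjusted p = 6.12e-07), and against day 1 by 5.96 ± 0.55 (adjusted p = 7.42e-07) and 5.47 ± 0.53 (adjusted p = 1.36e-06). It shares 1365 exon bases with Adar, an RNA-editing enzyme gene on the other strand, and no strand setting is given for the counting. Adar had 30.4 CPM in the controls and 77.4 and 64.0 CPM at day 13, and over the controls Chrnb2 had 16 counts beside 1442 of Adar.

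From day 1 to day 13, 7 members were called with each factor. Chrna1 and Chrnb1 fell with both, and Chrna3, Chrna4, Chrnb2 and Chrnb4 rose with both. Chrng rose with Ngn1 and Chrna7 with Ngn3. The background was 30.6% higher and 27.3% lower with Ngn1, and 29.0% higher and 26.8% lower with Ngn3.

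**Figure D3:**
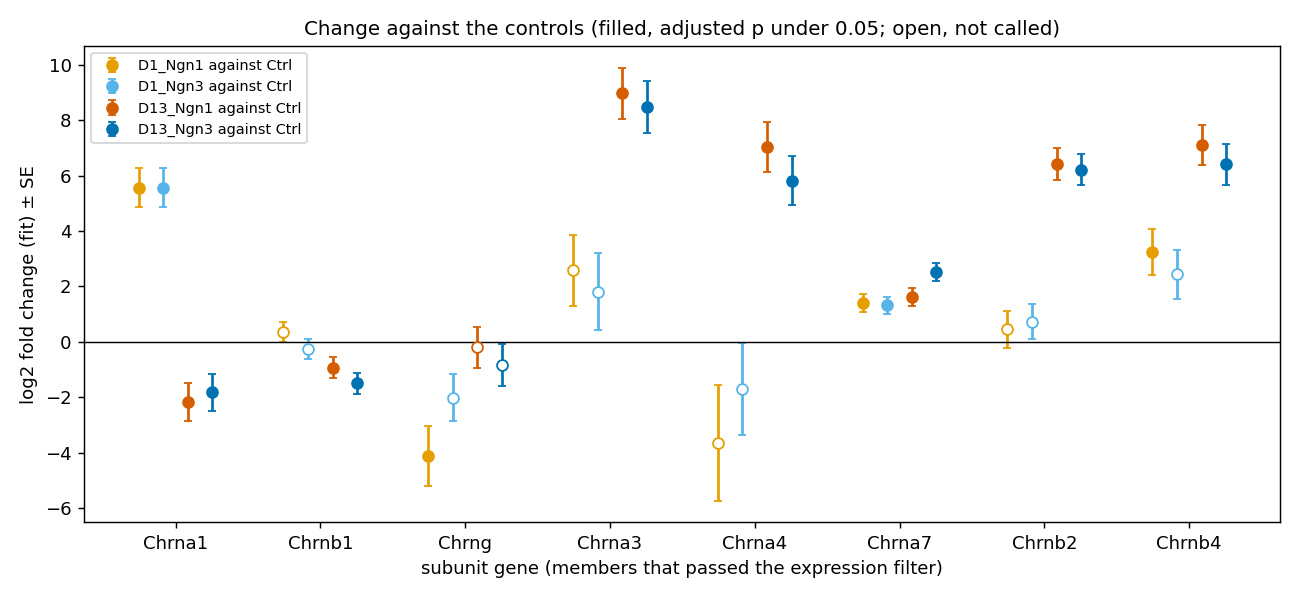
Fitted log2 fold change against the controls (± SE, edgeR, 3 libraries per group) of the 8 members that passed the filter, with filled points called at an adjusted p under 0.05. Chrna1 stands at 5.56 in both day 1 groups and at -2.16 and -1.81 at day 13, and the 5 neuronal-type genes are all filled at day 13. Fitted values of Chrng, Chrna3, Chrna4 and Chrnb4 rest on groups with few counts and depend on the prior count.

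The makeup of subunit mRNA differed between the days. The 5 muscle-type genes held 88.4% ± 4.54 of the summed CPM per kb of the 10 genes in the controls, 97.5% ± 1.16 in Ngn1 day 1, 97.4% ± 1.34 in Ngn3 day 1, 15.7% ± 4.75 in Ngn1 day 13 and 14.7% ± 5.61 in Ngn3 day 13 (SD, n = 3). Chrna1 alone made 25.6% in the controls, against 91.3% and 93.3% in the day 1 groups and 2.53% and 2.96% in the day 13 groups. The summed level was 6.39 CPM per kb in the controls, against 82.7 and 80.4 in the day 1 groups and 17.7 and 14.6 in the day 13 groups. With Chrna1 left out, the muscle-type share was 84.1% in the controls, against 70.6% and 63.1% in the day 1 groups and 13.6% and 12.1% in the day 13 groups. The ratio of Chrna1 to Chrnb1 per kb was 0.490 in the controls, against 16.7 with Ngn1 and 24.7 with Ngn3 on day 1.

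**Figure D4:**
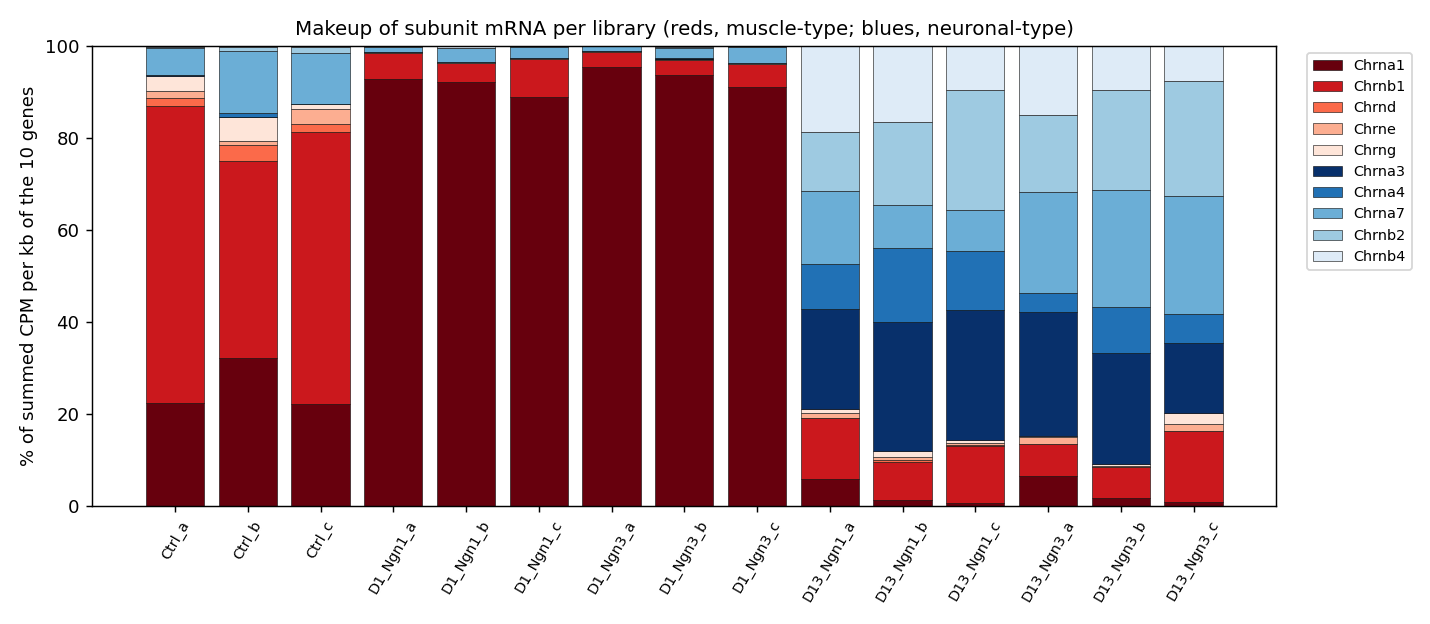
Percent of the summed CPM per kb of the 10 subunit genes that each gene makes up, in each library (reds, muscle-type, and blues, neuronal-type). Chrna1 fills 88.9% to 95.3% of every day 1 bar, and muscle-type genes together fill 8.96% to 21.1% of every day 13 bar.

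By CPM per kb, the order in the controls was Chrnb1 (3.63), Chrna1 (1.61) and Chrna7 (0.613), each without overlap with the next, and the remaining genes overlapped. At day 1 it was Chrna1, Chrnb1 and Chrna7 with both factors, again without overlap (75.9, 4.68 and 1.63 with Ngn1, and 75.5, 3.02 and 1.54 with Ngn3). At day 13 with Ngn1, Chrna3 (4.73), Chrnb2 (3.48), Chrnb4 (2.61), Chrna4 (2.40), Chrnb1 (1.91) and Chrna7 (1.89) followed each other with overlapping neighbours. With Ngn3, Chrna7 (3.54), Chrna3 (3.36) and Chrnb2 (3.02) had the highest means, followed by Chrnb4 (1.61), Chrnb1 (1.29) and Chrna4 (1.03). The range of Chrna3, 1.56 to 4.37, overlapped those of all 5 others, while Chrna7 and Chrnb2 did not overlap Chrnb4, Chrnb1 or Chrna4. Chrna3 exceeded Chrna4 per kb in all 6 day 13 libraries, by a ratio of 1.76 to 6.35. The ratio of Chrnb2 to Chrnb4 ranged from 0.694 to 3.25.

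The factors were compared directly at each day. In edgeR's test 0 of the 8 members differed at day 1 and 0 at day 13, and 0 differed in the change between days. At an unadjusted p under 0.05 there were 0, 1 and 1, and DESeq2 called 0 in each. Over all genes, 0.0119% were called at day 1, 0.0237% at day 13 and 0% in the change between days. For Chrna1 at day 1 the difference, Ngn3 minus Ngn1, was -0.01 ± 0.57 on the log2 scale (adjusted p = 1), an error that leaves room for sizeable differences. Libraries with the same letter moved together within a day, and with the letter as a block it was -0.05 ± 0.12 (adjusted p = 0.97).

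At day 13 the same block changed 2 calls. Chrna7 was higher with Ngn3 than with Ngn1 by 0.91 ± 0.21 (adjusted p = 0.0336), against 0.91 ± 0.29 (adjusted p = 0.528) without the block. Its values in a, b and c were higher with Ngn3 in 3 of 3 letters. Chrna4 was lower with Ngn3 in 3 of 3 letters, at -1.23 ± 0.26 (adjusted p = 0.0283) with the block and -1.22 ± 0.60 (adjusted p = 0.937) without it. Chrnb1 was also lower with Ngn3 in 3 of 3 letters, but was not called with the block (-0.55 ± 0.20, adjusted p = 0.166). Chrnd, which was not tested, was lower in each letter too. With the block 4.20% of 16656 tested genes were called in either direction.

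Genes whose profile was most like a member's were ranked by Pearson r of log2(CPM + 0.5) over the 15 libraries, as a description in which all genes share the libraries and the group structure. For Chrna1 they were Slc16a1, a monocarboxylate transporter (r = 0.9828), Cst6, a cysteine protease inhibitor (0.9827), Ehd4 (0.9819), Eif1ad (0.9794) and Farsa (0.9752). Slc16a1 had 85.4 CPM in the controls, 289 and 358 CPM at day 1, and 39.9 and 36.7 CPM at day 13. For Chrnb4 they included Astn1 (0.984), C2cd4c (0.9831), Emilin3 (0.9814) and Chst9 (0.9803). For Chrna7 the values were lower, from 0.9287 for Chst3 to 0.9256 for St6galnac4, and the list held Sema5a, Ssc5d and Adamts14.

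Of 6 other subunit genes, only Chrna5 was tested. It encodes α5, an accessory subunit whose gene lies in one cluster with Chrna3 and Chrnb4, and had 6 counts over the controls, 4 and 1 over the day 1 groups, and 113 and 125 over the day 13 groups. It rose by 3.87 ± 0.62 (adjusted p = 8.32e-05) and 4.09 ± 0.62 (adjusted p = 5.17e-05) at day 13. Chrnb3 had 0 counts in all 15 libraries, and Chrna2, Chrna6, Chrna9 and Chrna10 had at most 9 counts in any library.

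Of 10 genes for receptor chaperones and Ly6 proteins, which help receptors fold or tune them at the membrane, 7 were tested. At day 13, 6 rose and 0 fell with each factor (32.6% and 31.2% of all genes rose), with medians of 2.66 and 2.63 on the log2 scale (0.10 over all genes in each). Ly6h, a brain Ly6 protein, went from 0.0829 CPM in the controls to 390 and 438 CPM (12.05 ± 1.11, adjusted p = 6.09e-07, and 12.22 ± 1.11, adjusted p = 6.16e-07). Ric3, a chaperone of α7, rose by 2.66 ± 0.33 (adjusted p = 8.9e-06) and 2.63 ± 0.33 (adjusted p = 1.02e-05), and Tmem35a, another α7 chaperone, by 2.09 and 2.18. Lynx1 and Lypd1 rose too, and Lypd6 was not called. At day 1, 1 rose with Ngn1 and 2 with Ngn3, where 6.78% and 7.19% of all genes rose. They were Ly6e with both (129 CPM to 323 and 307 CPM) and Ly6h with Ngn3. A single library held 76 of the 92 Ly6h counts of the Ngn3 day 1 group, and the controls held 4.

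Of 14 genes for receptor clustering at the neuromuscular junction, 13 were tested. At day 1, 3 rose and 0 fell with Ngn1 and 2 rose and 0 fell with Ngn3, with medians of -0.00 and 0.09. Over all genes, 6.78% rose and 5.42% fell with Ngn1, and 7.19% and 5.59% with Ngn3. Nrg1, the neuregulin ligand, rose by 1.91 ± 0.28 (adjusted p = 0.000274) and 1.89 ± 0.28 (adjusted p = 0.00031), and Crkl, an adaptor, by 1.01 and 1.14. Rapsn, the scaffold that holds muscle receptors together, had 0.594 CPM in the controls and 0.302 and 0.371 CPM at day 1 and was not called. Musk, the receptor kinase of the junction, had 2 to 9 counts per group. At day 13, 5 rose and 2 fell with Ngn1 and 5 rose and 3 fell with Ngn3, with medians of 0.75 and 0.10. Those shares of 13 lie near the 32.6% higher and 26.8% lower over all genes with Ngn1 and the 31.2% and 26.4% with Ngn3. Agrn, the nerve-derived clustering signal, rose by 2.39 ± 0.26 (adjusted p = 2.6e-06) and 1.94 ± 0.26 (adjusted p = 1.51e-05), and its receptor Lrp4 by 2.76 and 2.54.

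Of 6 genes for making and removing acetylcholine, 5 were tested. At day 13, 4 rose and 1 fell with each factor. Over all genes 32.6% rose and 26.8% fell with Ngn1, and 31.2% and 26.4% with Ngn3. The medians of the tested genes were 3.66 and 4.05 on the log2 scale, unchanged with Slc18a3 at its bound. Chat, which makes acetylcholine, had 1 count over the controls and 48 and 113 at day 13, ratios of 39.8-fold (interval 6.81 to 1605) and 98.2-fold (17.3 to 3913). Slc18a3, which loads it into vesicles, had 0 counts in the controls and was at least 13.8-fold and 30.7-fold higher at day 13. Ache and Bche, which break it down, rose by 3.20 and 3.66 with Ngn1 and by 2.27 and 4.05 with Ngn3. Slc5a7, the choline transporter, fell in all 4 treated groups, by 2.22, 2.43, 2.45 and 4.99. At day 1, 0 rose and 1 fell with Ngn1 and 1 rose and 2 fell with Ngn3, where Ache had 1 count beside 20 over the controls (a ratio of 20.1-fold, interval 3.21 to 832). Over all genes at day 1, 6.78% rose and 5.42% fell with Ngn1, and 7.19% and 5.59% with Ngn3. Of 5 muscarinic receptor genes, which encode the other class of acetylcholine receptor, 2 were tested. Both rose at day 13 with each factor, beside 32.6% and 31.2% of all genes. Chrm2 rose by 6.44 ± 0.71 (adjusted p = 2.92e-06) and 5.62 ± 0.70 (adjusted p = 9.09e-06), and Chrm3 by 2.51 and 1.53. Chrm3 also rose at day 1 with Ngn1 (1.92, adjusted p = 0.034). The sums of 9 autonomic neuron markers, cells that use α3 with β4, were 29.3, 22.5 and 24.7 CPM in the controls, 62.0, 25.2 and 20.4 CPM with Ngn1 at day 13 and 52.8, 17.98 and 13.6 CPM with Ngn3. In each day 13 group only library a lay above every control. Of 6 such markers tested, 3 rose and 1 fell at day 13 with each factor, beside 32.6% and 31.2% higher and 26.8% and 26.4% lower over all genes. The sum of 5 Schwann and neural crest markers was 4.96 CPM in the controls, 2.65 and 2.91 CPM at day 1 and 12.5 and 9.96 CPM at day 13. Of 4 such markers tested, 1 rose and 0 fell at day 13 with each factor, beside 32.6% and 31.2% higher over all genes. At day 1, 0 rose with either factor and 1 fell with Ngn1, beside 5.42% lower over all genes.

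**Figure D5:**
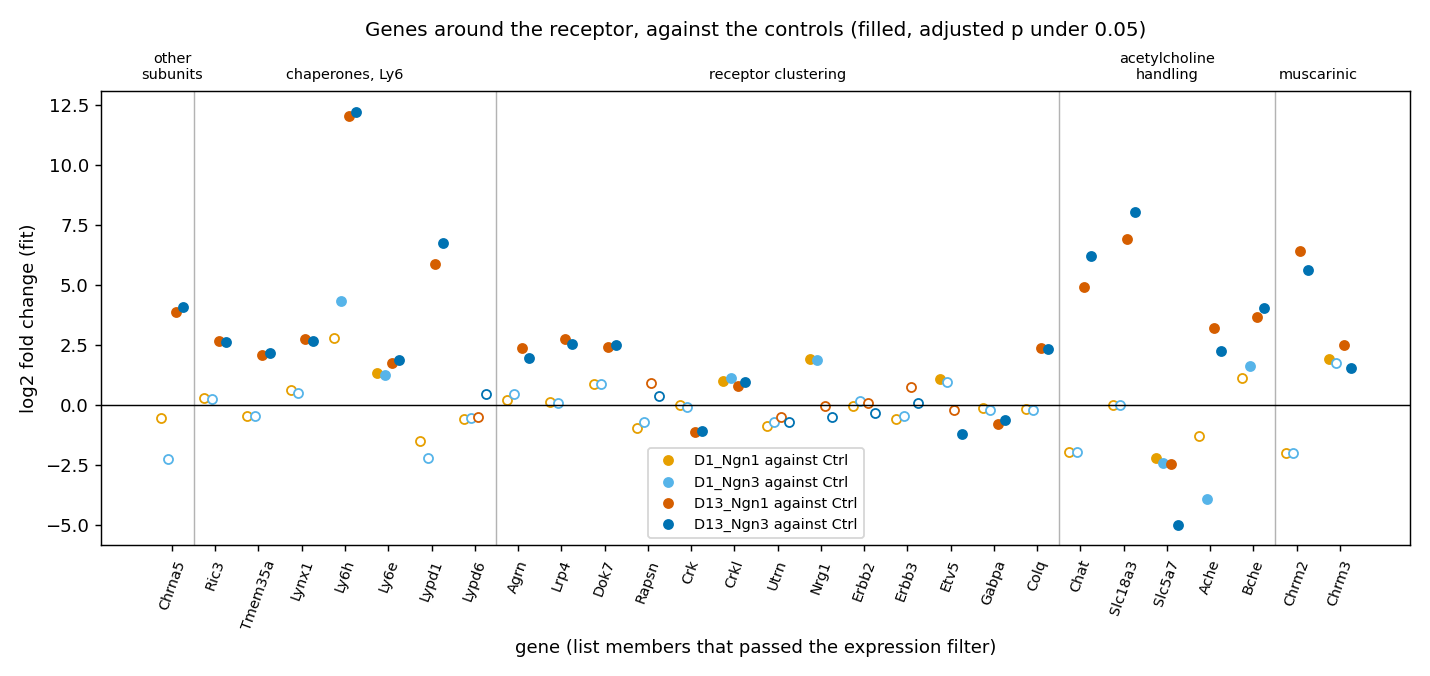
Fitted log2 fold change against the controls of listed genes around the receptor that passed the filter, for both factors at day 1 and day 13 (filled, adjusted p under 0.05). Ly6h stands highest at 12.05 and 12.22 at day 13, and Slc5a7 is below 0 in all 4 comparisons.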

How the data were processed

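The deposited table gives raw read counts by Ensembl gene ID, with a column for each library. The authors made them with CASAVA, HISAT2 and featureCounts on mm10, per the submitters' processing notes. The notes give neither versions nor a strand setting, so it is not known whether reads of overlapping genes on opposite strands were told apart. GENCODE M21 named 42462 of 43432 IDs. The other 970 held 0.142% of counts.

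All 15 libraries entered 1 fit with edgeR 4.0.16 (limma 3.58.1, R 4.3.3), using TMM factors, edgeR's expression filter, the quasi-likelihood F test and Benjamini-Hochberg adjustment over the 16872 genes tested, called under 0.05. "Rose" and "fell" are used of called genes. Levels are CPM on TMM-scaled sizes, with ± giving the SD, and log2 fold changes are given ± SE. Where the lower group had 0 counts, the fold is a bound against 3 counts over the group, and with 1 to 3 counts it is a ratio with its 95% exact interval. The fit was tested on simulated counts with the control means and a fixed spread. That check does not cover members near 0 counts or with a wider spread between libraries. DESeq2 1.42.0 and other settings were alternatives.

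Letters were taken to pair libraries within a day only: deviations of same-letter libraries from their group means correlated at 0.418 to 0.624 between the factors on the same day, but at -0.0396 to 0.295 between the days, at -0.169 to -0.07 between the controls and day 13, and at 0.0577 to 0.444 between the controls and day 1, where letters a and b were at 0.311 or more and letter c near 0. The letter was therefore no block against the controls. The members and lists were chosen with earlier results of these data known. All members were named, and genes of like pattern by the 5 highest correlations with Chrna1 and the other members with most calls, of which 1 gene is not reported here. Promoter windows came from RefSeq (GRCm38.p6), which matched 9 of the 10 members.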

Additional observations from a re-analysis of the deposited data

Results flagged for a closer look

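The difference between the factors at day 13 was called for Chrna4 and Chrna7 when libraries of the same letter were paired. Ngn3 minus Ngn1 was -1.23 for Chrna4 and 0.91 for Chrna7 on the log2 scale. These passed the threshold with the letter as a block (edgeR, adjusted p = 0.0283 and 0.0336) but not without it (adjusted p = 0.937 and 0.528). Each went in the same direction in 3 of 3 letters, which rests on the same values as the blocked test. Chrnb1 was also lower with Ngn3 in 3 of 3 letters, and was not called with the block (adjusted p = 0.166). Chrnd, which was not tested, was lower in each letter too.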

How the results depend on the processing

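The number of members called was within 1.5 times the reported count under every alternative run, except as follows. With Ngn1 at day 1 against the controls it was 2 in a fit of only the groups compared, and 2 to 4 as each library was left out. For the factors at day 13 it was 2 with a replicate block within the day, against 0, and that block changed no other call of a member between the factors. A replicate block over all 15 libraries, whose letters correlate unevenly with the controls and across days, called Chrnb4 with Ngn3 at day 1 (2.43, adjusted p = 0.0239). Direction turned in these uncalled results. Chrng with Ngn1 at day 13 against the controls was 0.11 with library totals, and ran from -1.02 to 0.11 with a library left out. Chrna1 between the factors at day 1 was 0.00096 with DESeq2's RLE size factors in edgeR, 0.013 with library totals, 0.010 with no filter and 0.00043 in DESeq2, and ran from -0.52 to 0.34 with a library left out. The other leave-one-out ranges, all against the controls, were -0.038 to 0.98 for Chrnb2 with Ngn1 at day 1, and -0.60 to 0.12 for Chrnb1 and -3.64 to 1.96 for Chrna4 with Ngn3 at day 1. The cause of these turns was not tested. Chrna4 with Ngn1 at day 1 ran from -4.23 to 0 and did not turn. The 0 came without control b, when neither group held a count. Without division by length, the muscle-type share of subunit RNA was 83.6% in the controls, 97.3% (Ngn1) and 97.2% (Ngn3) for day 1 and 9.03% and 8.39% for day 13, and without Chrna1 it was 70.6% and 63.1% for day 1. Library totals moved the median of all genes to 0.40 at day 13 against the controls, from 0.10. Groups of 3 and counts near 0 limit Chrnd, Chrne, Chrng and the day 1 values of Chrna3, Chrna4 and Chrnb4.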
